A study of Homo sapiens with 8 samples.

Results

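NF-Y binding in RH30 cells was compared between libraries made after transduction with control guides and libraries made with guides that edit a CCAAT motif of the PAX3 promoter. RH30 is a rhabdomyosarcoma cell line whose genotype is given as PAX3-FOXO1+, meaning that it carries the fusion of PAX3 with FOXO1. All 4 libraries came from RH30 cells engineered with an inducible cytosine base editor. The cells received an sgRNA, were selected with blasticidin, were given rapamycin to start editing, and were harvested 8 days later for CUT&RUN with an antibody to the NFYB subunit. The controls were sgCtrl1 and sgCtrl2, and the edited libraries were sgCCAAT2a and sgCCAAT2b, with 1 library for each guide. These 4 libraries are titled RH30 but carry RH4 as cell line and source name, and they were grouped by title. A bulk library pools edited and unedited cells, as well as the PAX3 and fusion alleles, and they cannot be told apart in it. The extent of editing in each library was not analysed here.

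A protein-coding gene was called bound in a library when an NFYB peak overlapped the 1000 bp on either side of either gene end. Of 20037 protein-coding genes, 489 (2.44%) had a peak in both controls and in neither edited library, and are called absent genes here. A further 21 (0.105%) had a peak in both edited libraries and in neither control, and are called edited-only genes. Another 1497 genes had a peak in all 4 libraries and served as the comparison.

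NF-Y is made of 3 subunits. NFYB and NFYC pair through histone-like folds, and NFYA reads the CCAAT box, a short motif that is common just upstream of transcription start sites. Its target promoters include those of many genes of the cell cycle, lipid synthesis and protein folding. In alveolar rhabdomyosarcoma, the PAX3 promoter drives the fusion gene, whose product is a transcription factor that acts on muscle-lineage and receptor kinase genes.

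The sequences below show the PAX3 promoter, where the study placed its edit, next to promoters of each class. They were taken from RefSeq promoters on GRCh38.p14, run 5′ to 3′, stop before the start site and carry each CCAAT in capitals. A CCAAT box was present on either strand in 36.4% of 15840 promoter stretches, which ran from 250 bp before to 50 bp after the start site. The PAX3 entry (chr2:222298999-222299248, minus strand, the strand of the gene) holds 2 boxes. The stretch of CCNB2, a mitotic cyclin bound in all 4 libraries, lies at chr15:59104896-59105145 on the plus strand, the strand of the gene, and holds 4. ALK (chr2:29921711-29921771, plus strand), MSX1 (chr4:4859580-4859640, minus strand), DDX10 (chr11:108664939-108664999, plus strand), ORC3 (chr6:87590038-87590098, plus strand) and ELOVL1 (chr1:43368044-43368104, minus strand) are absent genes. CEBPG (chr19:33373657-33373708, minus strand), RBM27 (chr5:146203464-146203524, minus strand) and BICD2 (chr9:92764946-92765006, minus strand) are edited-only genes. The short stretches surround the CCAAT nearest the peak centre and are read on the strand that carries it. Apart from PAX3, the genes were chosen for display after their values were seen.
PAX3: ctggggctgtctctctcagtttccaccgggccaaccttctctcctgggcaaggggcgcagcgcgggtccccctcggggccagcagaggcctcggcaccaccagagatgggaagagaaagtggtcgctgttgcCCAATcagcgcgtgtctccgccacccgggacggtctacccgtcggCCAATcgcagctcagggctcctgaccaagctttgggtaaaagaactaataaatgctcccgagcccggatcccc
CCNB2: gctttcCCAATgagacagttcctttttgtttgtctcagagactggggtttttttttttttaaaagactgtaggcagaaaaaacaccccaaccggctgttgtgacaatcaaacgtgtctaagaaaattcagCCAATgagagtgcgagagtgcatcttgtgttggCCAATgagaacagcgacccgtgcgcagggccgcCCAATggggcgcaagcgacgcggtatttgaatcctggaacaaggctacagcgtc
ALK: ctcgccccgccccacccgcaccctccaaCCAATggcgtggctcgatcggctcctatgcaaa
MSX1: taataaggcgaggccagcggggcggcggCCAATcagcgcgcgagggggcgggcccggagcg
DDX10: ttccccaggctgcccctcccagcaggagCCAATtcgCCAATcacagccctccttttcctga
ORC3: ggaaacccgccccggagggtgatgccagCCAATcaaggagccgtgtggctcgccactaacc
ELOVL1: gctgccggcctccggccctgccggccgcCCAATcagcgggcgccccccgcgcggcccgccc
CEBPG: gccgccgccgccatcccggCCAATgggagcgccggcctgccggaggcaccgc
RBM27: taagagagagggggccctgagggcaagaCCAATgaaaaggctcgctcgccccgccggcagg
BICD2: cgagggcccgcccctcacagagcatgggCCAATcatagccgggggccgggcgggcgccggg

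The first question was whether the PAX3 promoter carried NFYB in these lists. It did in both controls and in neither edited library. The sgCtrl1 peak spanned chr2:222299014-222299202 and stood at place 545 of 4025 in its list. The sgCtrl2 peak spanned chr2:222299005-222299201 and stood at place 703 of 6687. In sgCCAAT2a the nearest peak to the PAX3 gene lay 410494 bp away, and in sgCCAAT2b it lay 410560 bp away. Both CCAAT boxes were inside both control peaks: one centred 116 bp and the other 71 bp before the start site, 45 bp apart. The peak centres lay 6 bp from the farther box in sgCtrl1 and 11 bp from it in sgCtrl2, against 39 bp and 34 bp from the nearer one. The labels do not say which box the guides target. In RH4, a second PAX3-FOXO1+ line left untreated, the NFYB peak and the NFYC peak at PAX3 also contained both boxes.

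PAX3 was 1 of 489 absent genes, which made up 21.6% of the 2259 genes bound in both controls (95% exact interval 19.96 to 23.4%). Of those 2259 genes, 66.3% were bound in all 4 libraries, and 273 (12.1%) in exactly 1 edited library: 187 in sgCCAAT2b and 86 in sgCCAAT2a. The 21 edited-only genes made up 1.29% of the 1628 genes bound in both edited libraries (0.800 to 1.97%). A further 110 of these 1628 genes (6.76%) had a peak in exactly 1 control. Because neighbouring genes can share a promoter, the 489 absent genes stood for 417 separate loci, the 21 edited-only genes for 16 and the 1497 genes of all 4 libraries for 1196. Intervals here cover the counting of genes only. With 2 libraries a side no permutation test can give a two-sided p under 0.333, so no p was computed between the sides.

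**Figure D1:**
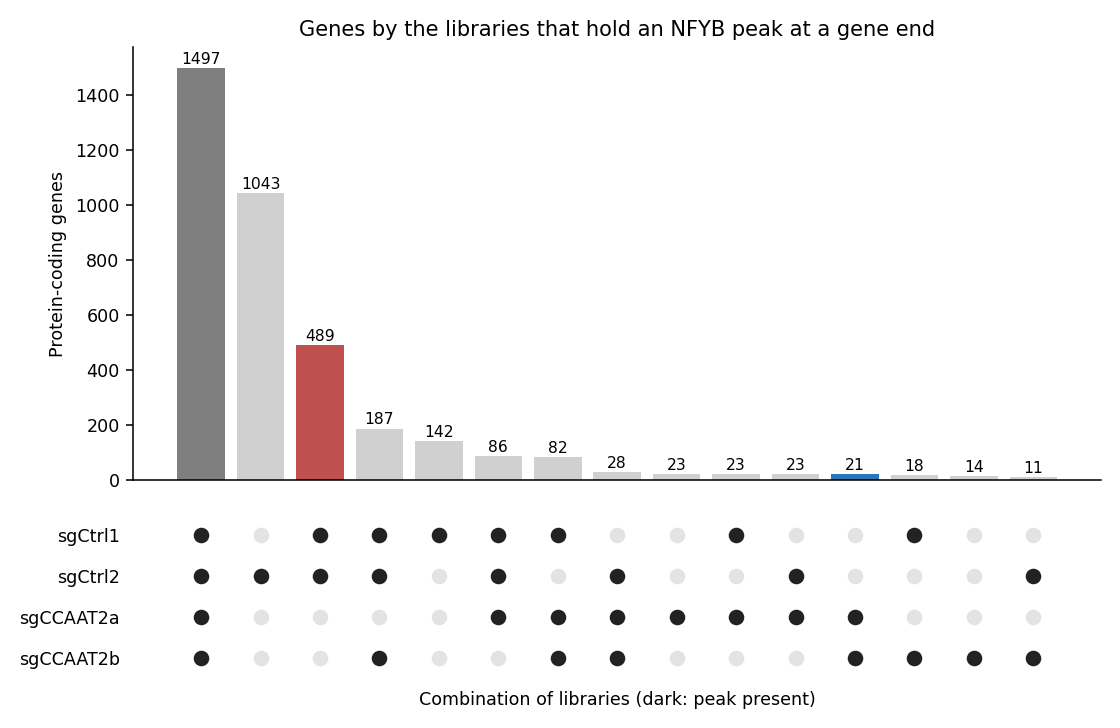
Protein-coding genes (vertical axis) by the combination of RH30 NFYB libraries with a peak within 1000 bp of a gene end; dark dots under each bar mark the libraries with a peak. The 489 absent genes are red, the 21 edited-only genes blue and the 1497 genes of all 4 libraries dark grey; 1043 genes were bound in sgCtrl2 alone.

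The libraries differed in ways other than the guide. They held 4025 (sgCtrl1), 6687 (sgCtrl2), 2451 (sgCCAAT2a) and 2558 (sgCCAAT2b) peaks, over 2524, 3364, 1783 and 1858 genes. The median peak width was 189, 197, 153 and 163 bp. The fragment length given was 104 bp for sgCtrl1 and sgCCAAT2a and 82 bp for sgCtrl2 and sgCCAAT2b, a split that runs across the sides. The edited libraries were the deeper, with 21.2 and 28.2 M tags against 13.9 and 10.5 M, and their peaks held 1.22% and 1.46% of the tags against 2.40% and 3.10%. Their tag threshold for a putative peak, before the input and local filters, was 5 and 6 against 4 in each control. The part of depth and of these settings in the absent genes was not tested.

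The sides were also set against the spread within a side. Of the sgCtrl1 genes, 10.5% had no peak in sgCtrl2, against 33.1% with none in sgCCAAT2a and 29.3% with none in sgCCAAT2b. Of the sgCtrl2 genes, 32.8% had none in sgCtrl1, against 51.4% and 48.8% with none in the edited libraries. The gap between sgCtrl2 and sgCtrl1 was therefore about as wide as that between sgCtrl1 and either edited library. In the other direction, 5.33% of sgCCAAT2a genes and 3.98% of sgCCAAT2b genes had no peak in sgCtrl1, less than the 8.69% and 12.4% that separated the edited libraries from each other. Against sgCtrl2 the shares were 8.36% and 7.27%, of which the sgCCAAT2a value was close to its 8.69%. When each list was shortened to its first 2451 peaks, 309 genes were absent and 64 were edited-only. All 309 were among the 489, and all 21 edited-only genes were among the 64. The cut left sgCCAAT2a whole and fell mainly on the controls, so this nesting was largely set in advance. Without sgCtrl1 the counts were 1532 and 103, without sgCtrl2 631 and 49, without sgCCAAT2a 575 and 35, and without sgCCAAT2b 676 and 44. All 489 absent genes, PAX3, ALK and MYOD1 among them, stayed in the class each time, since a rule over fewer libraries is the weaker one.

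The function lists asked which kinds of genes made up the absent and edited-only classes. Of 43 lists, 38 had at least 1 absent member. Over all list genes bound in both controls, 139 of 731 (19.02%) were absent, against 350 of 1528 genes in no list (22.9%), so the lists as a whole lay close to the 21.6% of all genes. With lists of equal length, 86 of 612 list genes (14.1%) and 309 of 1887 genes in all (16.4%) were absent. Counts given below for that setting are over members still bound in both controls. The lists overlap: PAX3 stands in 3 of them. ALK is counted under fusion targets and receptor kinases, MYOD1 under fusion targets and myogenic genes, and SIX4 under myogenic and homeobox genes. The shares of these lists are therefore not separate counts.

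The list of PAX3-FOXO1 target genes and fusion partners had 4 members bound in both controls, and all 4 were absent: PAX3, ALK, MYOD1 and OLIG2. ALK encodes a receptor tyrosine kinase. Its control peaks stood at place 2011 in sgCtrl1 and 2270 in sgCtrl2, and the nearest edited peaks lay 225021 and 224998 bp from the gene. MYOD1, the master regulator of muscle determination, had control peaks at places 2088 and 2364 and edited peaks no nearer than 35944 and 36015 bp. OLIG2, a basic helix-loop-helix factor of the neural lineage, had control peaks at places 2596 and 2178. RH4 had NFYB and NFYC peaks at ALK and OLIG2 and neither at MYOD1. With lists of equal length, PAX3, ALK and MYOD1 remained absent, and OLIG2 lost its call because its sgCtrl1 peak fell beyond place 2451. The list has 31 members in all.

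Myogenic genes gave 4 absent members of 8 bound in both controls: PAX3, MYOD1, MEF2D and SIX4. MEF2D, a partner of the myogenic factors, had control peaks 54 and 74 bp beyond its 5′ end. Its nearest edited peaks were 125281 bp away in sgCCAAT2a and 2587 bp away in sgCCAAT2b, which is the closest any edited peak came to these 4 genes. SIX4, a homeobox factor of early muscle, had late peaks at places 3467 of 4025 in sgCtrl1 and 4009 of 6687 in sgCtrl2 and was lost from the controls when lists were of equal length.

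Homeobox genes gave 8 absent members of 19, among them HOXB4, HOXB7, MSX1, MSX2, PAX3, POU3F1 and SIX4. Homeobox genes encode transcription factors of body patterning and cell identity. MSX1 and MSX2, which hold back differentiation in several lineages, each had 2 CCAAT boxes in the promoter stretch, the nearest 11.5 and 9.5 bp from the mean peak centre. MSX1 peaks stood at 53.9% and 25.3% of the control lists, and MSX2 peaks at 45.9% and 25.6%. POU3F1 had 3 boxes, the nearest 3.5 bp from the peak centre. MSX1, MSX2, POU3F1 and PAX3 had both RH4 peaks, whereas HOXB4, HOXB7 and SIX4 had neither. With equal lists 5 of 15 were absent, against 16.4% of all genes in that setting.

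Receptor kinases and the RAS pathway gave 5 of 8: ALK, PDGFRB, AKT2, MAP2K1 and TSC2. PDGFRB encodes a platelet-derived growth factor receptor, AKT2 and MAP2K1 are kinases downstream of such receptors, and TSC2 restrains growth signalling through mTOR. Both RH4 peaks were present at ALK, AKT2 and MAP2K1, and neither at PDGFRB and TSC2. The MAP2K1 peak is shared with TIPIN, a replication fork factor that shares the promoter. The TSC2 peaks stood late, at 75.7% of the sgCtrl1 list and 65.8% of the sgCtrl2 list. With lists of equal length, 3 of 6 were absent, against 16.4% of all genes in that setting.

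DEAD and DEAH box helicases, which unwind RNA, gave 6 of 11: DDX10, DDX23, DDX41, DDX56, DHX29 and DHX57. DDX10 had 3 CCAAT boxes in its stretch, and its peaks stood at 43.7% and 23.1% of the control lists. Its nearest edited peaks lay 442194 and 442144 bp away. All 6 had an RH4 NFYB peak, and DDX10, DDX23 and DDX56 also had an NFYC peak. With equal lists 2 of 6 were absent, DDX10 and DHX29, against 16.4% of all genes in that setting. Apoptosis genes gave 2 of 4, BAK1 and TP53INP1, neither with an RH4 peak, and 0 of 1 with equal lists.

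DNA replication genes gave 6 of 24, close to the share of all genes. CDK4, the cyclin D kinase of the G1 to S transition, had the second highest mean place of all absent genes. Its control peaks stood at places 266 and 199, and edited peaks lay 2703 and 2671 bp from the gene, outside the window. GINS1 and ORC3, parts of the helicase and of the origin recognition complex, and POLD2, a subunit of DNA polymerase delta, had control peaks in the first 60% of both lists and both RH4 peaks. TIPIN shared its peak with MAP2K1. POLA1, the catalytic subunit of DNA polymerase alpha, had no RH4 peak.

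Several lists lay between 15.1% and 28%, on either side of the 21.6% of all genes. Mitochondrial import and carriers gave 7 of 25, among them SAMM50 and TOMM70 of the outer membrane and 5 carriers of the SLC25 family. Spliceosome, SR and hnRNP proteins gave 8 of 35, among them SF3B2, HNRNPM and DDX23. Secretory pathway genes gave 5 of 21, including the signal recognition particle subunit SRP14 and the signal peptidase subunit SEC11A. With lists of equal length, SRP14 and SAMM50 had no peak in either control and DDX23 had none in sgCtrl2, so these lost their call. SEC11A, TOMM70, SF3B2 and HNRNPM remained absent. Zinc finger genes outside chromosome 19 gave 10 of 44 (22.7%), and those on chromosome 19 gave 8 of 53 (15.1%). Ubiquitin ligases, E2 enzymes and deubiquitinases gave 10 of 45.

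Cholesterol and fatty acid synthesis gave 4 of 21, among them ELOVL1, which elongates fatty acids, and FADS1 and FADS2, which desaturate them. FADS1 and FADS2 share a locus and lay near edited peaks, which were 1313 and 1242 bp from FADS2 and 2113 and 2042 bp from FADS1. With a window of 3000 bp, 2 of 22 members of this list were absent. Serine and one-carbon genes gave 2 of 12, among them PHGDH, the first enzyme of serine synthesis.

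The lists with the smallest shares included mitotic and ER folding genes, which are well-known NF-Y targets. Mitosis, G2 and M phase gave 2 of 30 (6.67%), KIF23 and SGO2, which act in cytokinesis and in sister chromatid cohesion. ER folding and the unfolded protein response gave 2 of 26 (7.69%), FKBP2 and SELENOS. Chromatin remodelling and acetylation gave 1 of 19, SMARCD1. NF-Y subunits and promoter partners gave 0 of 10, and NFYA, NFYC and SP1 were bound in all 4 libraries. Replication-dependent histones gave 1 of 26 (3.85%), H4C2. Control peaks of this list stood late, at a median of 54.7% of the sgCtrl1 list and 30.9% of the sgCtrl2 list. Neighbouring histone genes can share a peak: H2AC20, H2AC21 and H2BC21 had the same mean place, as did H2AC7, H2BC7 and H3C4. With equal lists 0 of 14 were absent. In that setting the histone genes H1-4, H2BC5, H2BC18, H3C1, H3C13 and H4C1, bound in all 4 full lists, were edited-only. The lists of ER folding, NF-Y subunits and partners, chromatin remodelling and mitosis had earlier control peaks. Their median places in sgCtrl1 and sgCtrl2 were 11.4% and 5.33% for ER folding, 10.8% and 4.25% for NF-Y subunits and partners, 16% and 7.15% for chromatin remodelling and 23.7% and 15.3% for mitosis. The medians over all genes bound in both controls were 30.3% and 17.9%. Most lists with many absent members had later peaks: 43.6% and 25.2% for homeobox genes, 46.5% and 25.9% for receptor kinases and the RAS pathway, 44.2% and 30.6% for the helicases, 50.9% and 33.3% for the fusion target list and 63.8% and 41.9% for apoptosis. Myogenic genes, at 34.1% and 17.3%, stood near the medians of all genes. The list medians include the absent members, which stood later as a class, so a list's median and its absent share are tied. Over all genes whose sgCtrl1 peak stood between 40 and 50% of the list, 41.2% were absent. Among lists with a median sgCtrl1 place in that range, 42.1% of homeobox genes were absent. The share was 54.5% for the helicases and 62.5% for receptor kinases and the RAS pathway. These list shares cover members at any place. The part of place in the list shares was not tested. DNA repair gave 4 of 31 (12.9%), ATRIP, ERCC1, FANCG and XRCC6. Its control peaks were not early, with median places of 30.4% in sgCtrl1 and 18.2% in sgCtrl2, near those of all genes. Olfactory receptors, keratins, blood cell markers and liver cell markers had no member bound in both controls, out of 390, 149, 20 and 17 genes.

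**Figure D2:**
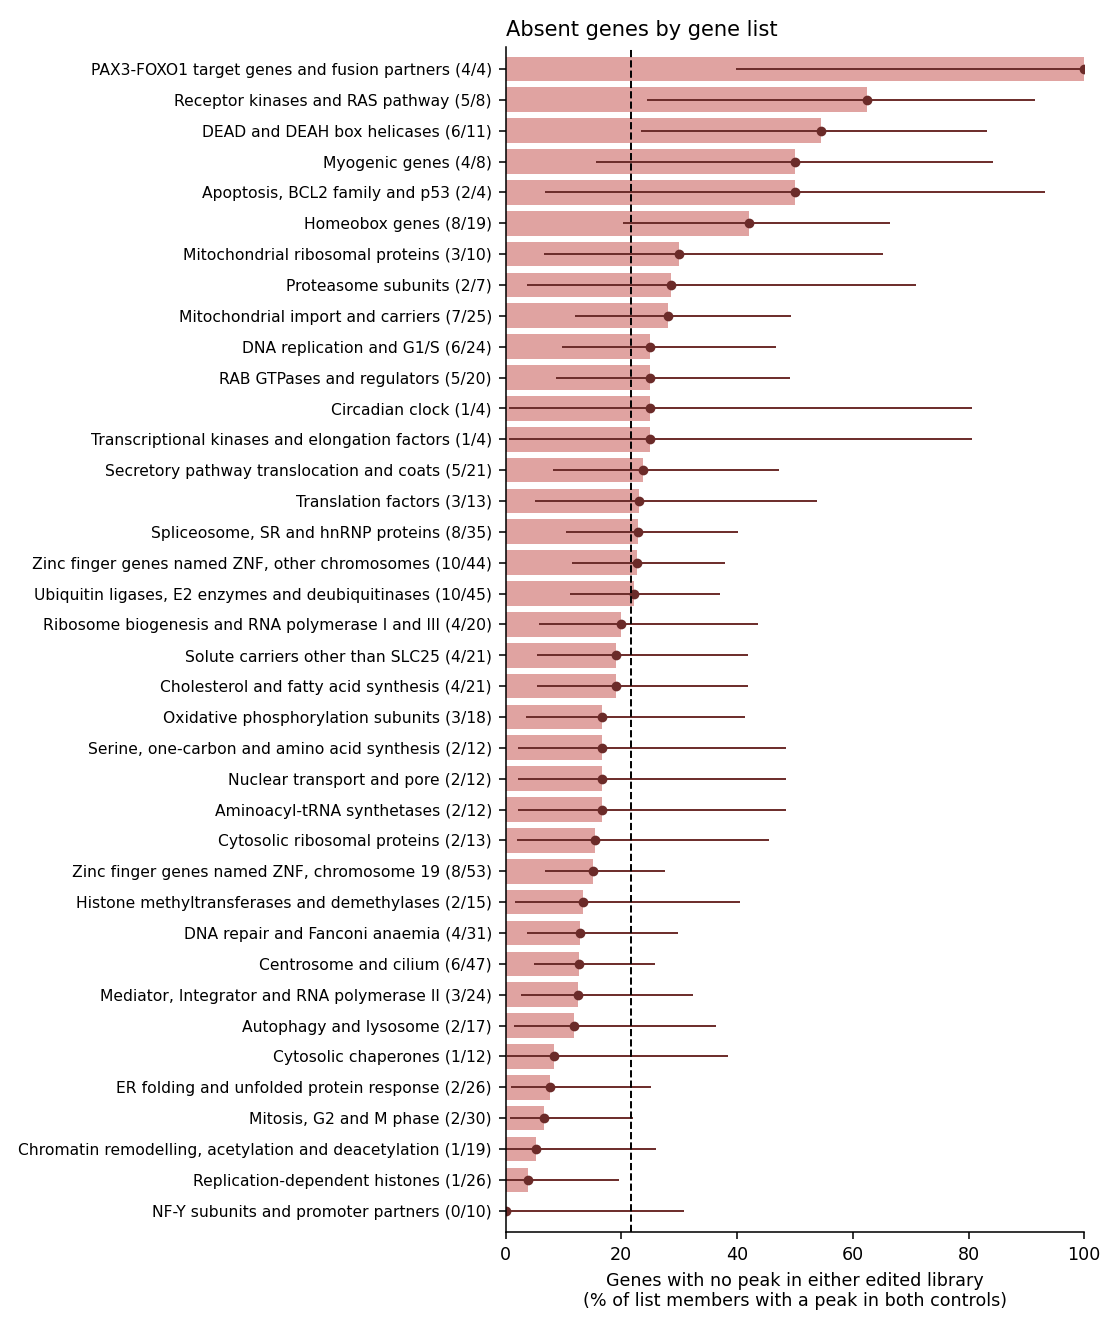
Share of genes with no peak in either edited library, as a percent of list members bound in both controls (horizontal axis), for lists with at least 4 such members; numbers in brackets are absent genes over genes bound in both controls, and lines are 95% exact intervals of the counts. The dashed line is the 21.6% over all genes; the fusion target list (4 of 4) lies at the top and NF-Y subunits and partners (0 of 10) at the bottom.

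Beyond the lists, several well-known genes were absent, and these were chosen after their values were seen. They include JUN and JUND, subunits of the AP-1 factor, ACTB and ACTG1, the cytoplasmic actins, HEY2 of the Notch pathway, the neural and limb factor ZIC1, and MKI67, the Ki-67 proliferation marker. JUN peaks stood at 33.5% and 29.6% of the control lists, and the nearest edited peaks lay 38646 and 38713 bp away. JUN, JUND, ACTB, HEY2 and ZIC1 had both RH4 peaks, ACTG1 had the NFYC peak and MKI67 the NFYB peak. With lists of equal length MKI67 had no peak in either control and lost its call, and the other 6 genes remained absent.

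The 15 absent genes of highest mean place over the controls were NLK, CDK4, ANKRD39, PAX3, ELL, FAM98C, CNEP1R1, TMEM141, EDF1, CTNNBIP1, DTYMK, ING5, RBM4B, PARP3 and RRP9. PAX3 was the fourth, with a mean place of 12.03%. NLK, a kinase of the Wnt and Notch pathways, came first at places 11 and 23, but its control peaks ended 983 and 958 bp from the gene and edited peaks stood just past the window, at 1041 and 1037 bp. ANKRD39 had peaks at places 666 and 443 and no edited peak within 31695 bp. ELL, an elongation factor of RNA polymerase II, had peaks at places 682 and 692 and no edited peak within 21447 bp. EDF1, a transcriptional coactivator, had a single CCAAT box 4.5 bp from the peak centre and its nearest edited peak 12737 bp away. DTYMK, which makes thymidine diphosphate, and the chromatin reader ING5 share 1 peak, as do PARP3 and RRP9. All 15 had both RH4 peaks except CDK4, which had the NFYB peak.

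Some calls turned on the width of the window. Of the 489 absent genes, 437 were also absent with a window of 500 bp, among 448 in all, and 470 with a window of 3000 bp, among 552. TESK1 had control peaks 984 and 960 bp from the gene and edited peaks at 1033 and 1048 bp, and FANCG had control peaks at 999 and 0 bp and edited peaks at 1017 and 1025 bp. TEX2 and FADS2 came next, with nearest edited peaks at 1237 and 1242 bp. On the inner side, IVNS1ABP had control peaks at 995 and 920 bp and PSMD9 had one at 977 bp. On the outer side, LRG1, DLG1, AZIN1, N4BP2 and SUV39H1 fell just outside because 1 control peak lay between 1006 and 1041 bp away. In all, 19 of 489 absent genes (3.89%) had an edited peak within 3000 bp, 51 (10.4%) within 10000 bp and 226 (46.2%) within 100000 bp.

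The edited-only class held 21 genes at 16 loci. NARF, named for its binding to prelamin A, had the highest place, 146 of 2451 in sgCCAAT2a and 158 of 2558 in sgCCAAT2b, and control peaks lay 28961 and 7319 bp away. DHCR7, which makes cholesterol from its last precursor, had places 319 and 437 and control peaks 14326 and 117420 bp away. CEBPG, a bZIP factor of the amino acid stress response, had places 687 and 562, with control peaks 401563 and 196340 bp away. Its peaks covered the start site. TNRC6C and RBM27, both RNA-binding proteins, had places 469 and 383 and places 456 and 534. DNAJC27, a small GTPase with a J domain, had places 541 and 792, and BICD2, a dynein adaptor, had places 787 and 764.

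Some of these genes are neighbours counted from 1 peak: ATG2A with PPP2R5B, CDNF with HSPA14 and MSANTD7, RBM27 with the readthrough gene RBM27-POU4F3, and TAS1R1 with ZBTB48. The others were FCHO1, TNFAIP8L1, DCAF4, ZNF90, GPR85 and TAF11L5. No control peak lay within 3000 bp of any of the 21, and for 4 of 21 one lay within 10000 bp. The latest places belonged to GPR85 (93.9% and 86.7%) and TAF11L5 (92.8% and 94.96%), the only edited-only genes with no RH4 peak. In the function lists, 7 edited-only genes appeared, each in a list of its own: ATG2A (autophagy), DHCR7 (cholesterol), HSPA14 (chaperones), CEBPG (serine and amino acids), RBM27 (splicing), DCAF4 (ubiquitin) and ZNF90 (zinc fingers of chromosome 19).

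The place of a peak in its file was used to describe its strength, because the lists give no score. Within a chromosome, the entries ran in the order of the numbers in their names, with a median Spearman rho of 0.983 for sgCtrl1 and 0.940 for sgCtrl2 over 23 chromosomes, and of 0.961 for both edited libraries over 21 and 22. The lowest rho on 1 chromosome was 0.964 in sgCtrl1, 0.768 in sgCtrl2, 0.945 in sgCCAAT2a and 0.853 in sgCCAAT2b. Whether place follows signal was not tested. Absent genes stood later than genes of all 4 libraries. Their median place was 53.5% of the sgCtrl1 list (quartiles 44.1 and 63.1%) against 20.9% (9.39 and 35.3%). In sgCtrl2 it was 30.6% (24.0 and 37.6%) against 12.8% (5.91 and 22.6%). The quartiles did not overlap in either control. Of genes bound in both controls, 3 of 403 (0.744%) in the first 10% of the sgCtrl1 list were absent, 117 of 284 (41.2%) between 40 and 50%, and 10 of 11 (90.9%) beyond 90%. In the sgCtrl2 list the share was 8 of 645 (1.24%) in the first 10% and 155 of 341 (45.5%) between 30 and 40%. The edited-only genes had no such late position. Their median place was 32.1% in sgCCAAT2a and 33.3% in sgCCAAT2b, against 37.7% and 34.2% for genes of all 4 libraries.

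**Figure D3:**
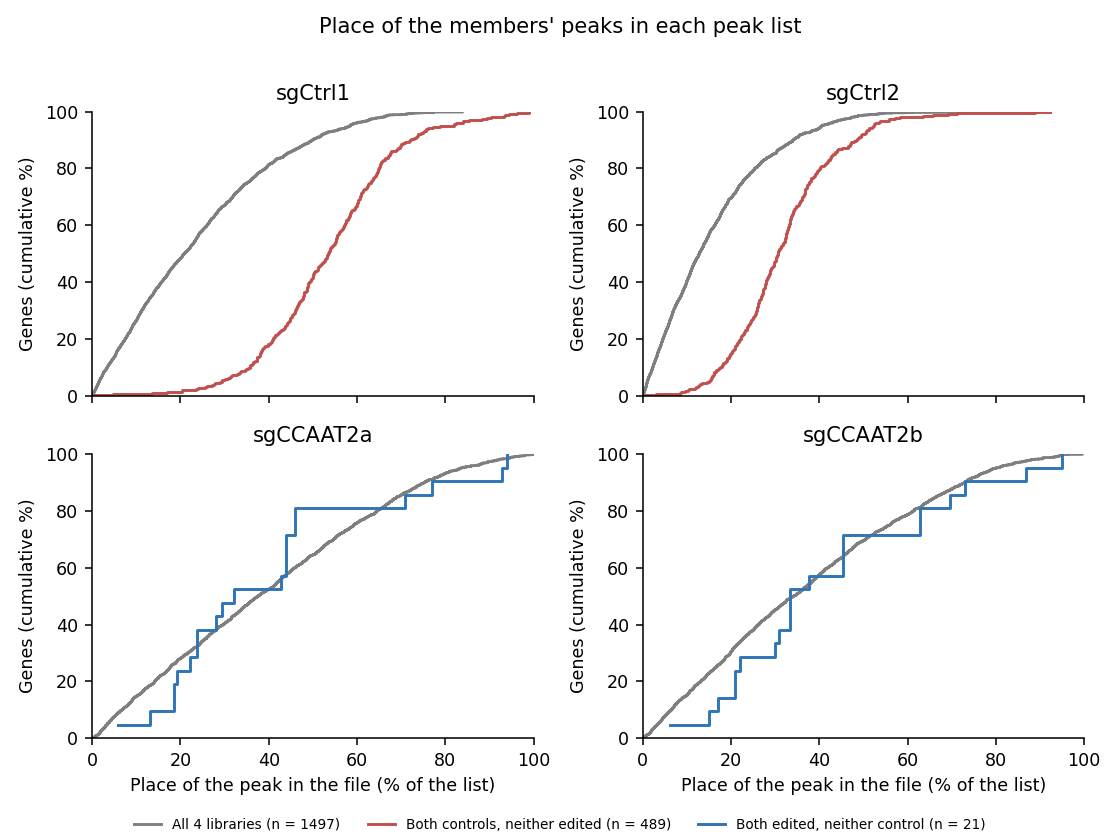
Cumulative percent of genes (vertical axis) by the place of their peak in each library's list (horizontal axis, 0% is the first entry), with 1 panel a library. Absent genes (red, n = 489) have median places of 53.5% and 30.6% in the controls, against 20.9% and 12.8% for genes of all 4 libraries (grey); edited-only genes (blue, n = 21) run near the grey line.

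The peaks lay just upstream of the gene in most members of each class. Of the absent genes with a known strand, 394 of 406 (97.0%) had the peak at the 5′ end, against 18 of 20 edited-only genes and 1241 of 1301 genes of all 4 libraries (95.4%). Peak centres of absent genes lay a median of 86.5 bp outside the gene, those of edited-only genes 120 bp and those of genes of all 4 libraries 103 bp. The sgCtrl1 and sgCtrl2 peaks overlapped each other at 465 of 489 absent genes (95.1%), and the edited peaks did so at 21 of 21 edited-only genes.

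The promoters differed in what the rule did not use. A CCAAT box was found in 275 of 406 absent promoters (67.7%, 62.9 to 72.3%), 12 of 20 edited-only promoters (60%, 36.1 to 80.9%) and 1107 of 1301 promoters of genes of all 4 libraries (85.1%, 83.0 to 87.0%). At least 2 boxes, as at PAX3, were found in 23.6% of absent promoters, 40% of edited-only promoters and 58.7% of promoters bound in all 4 libraries, against 12.5% of all promoters. Among absent genes whose mean peak centre fell inside the stretch, 240 of 291 (82.5%) had a box, against 924 of 950 (97.3%) in all 4 libraries and 11 of 12 edited-only genes. The median distance from peak centre to the nearest box was 21.5 bp, 16 bp and 14 bp in that order. The edited-only genes include FCHO1, ATG2A, ZNF90 and ZBTB48, whose boxes lay 5, 4, 0.5 and 1 bp from the peak centre. DCAF4 had no box in its stretch although its peak lay there. The median GC content was 68.7% in absent promoters, 62.0% in edited-only promoters, 63.3% in promoters of all 4 libraries and 62.7% in all promoters. A match is a description of the letters in the stretch and not a site.

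**Figure D4:**
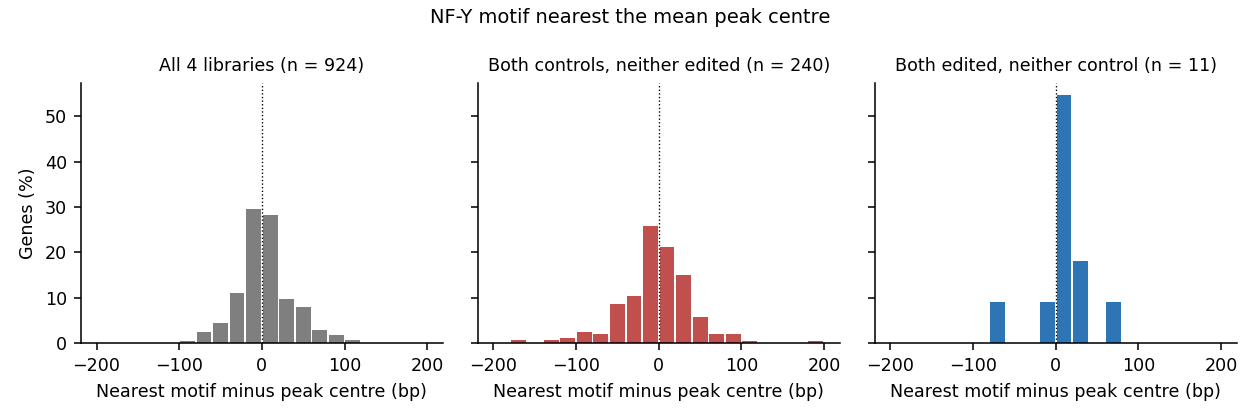
Distance from the mean peak centre to the nearest CCAAT box (horizontal axis, bp, in bins of 20 bp), as a percent of genes with a box and the peak centre inside the promoter stretch. The median distances are 16 bp for genes of all 4 libraries, 21.5 bp for absent genes and 14 bp for the 11 edited-only genes.

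The RH4 lists gave a readout that the rule did not use. Both RH4 NFYB and RH4 NFYC peaks were present at 320 of 489 absent genes (65.4%, 61.0 to 69.7%), 17 of 21 edited-only genes (81.0%, 58.1 to 94.6%) and 1409 of 1497 genes of all 4 libraries (94.1%, 92.8 to 95.3%). The share was 13.5% over all genes and 2.01% over genes with no RH30 peak. Neither RH4 peak was present at 80 absent genes (16.4%), MYOD1 and PDGFRB among them, and at 42 genes of all 4 libraries (2.81%).

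**Figure D5:**
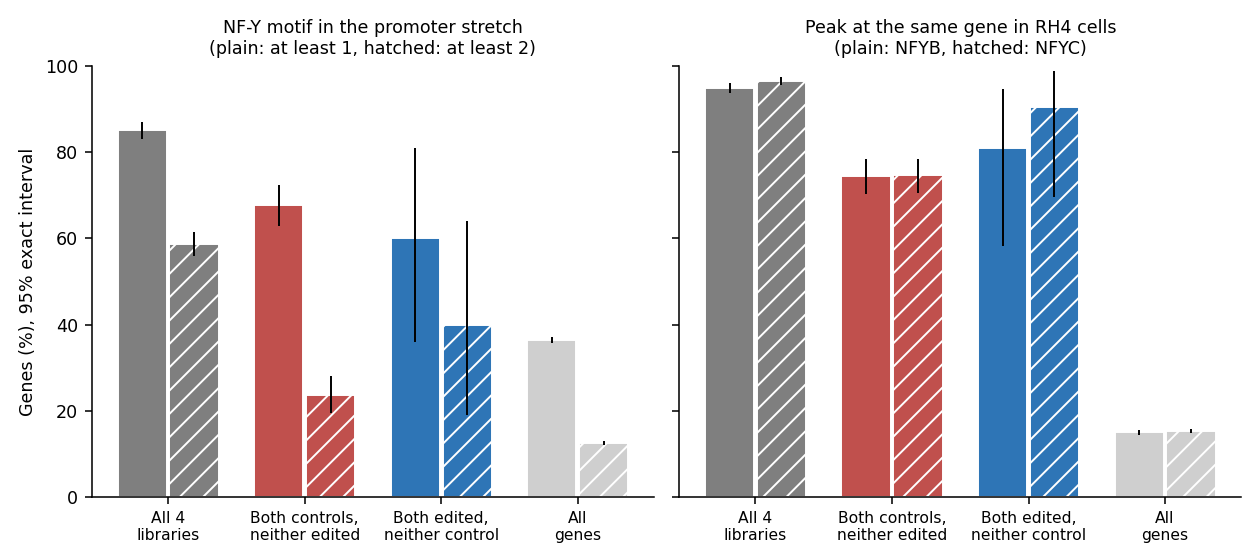
Left, percent of genes (vertical axis) with at least 1 (plain) or at least 2 (hatched) CCAAT boxes in the promoter stretch, by class and over all genes; right, percent with an RH4 NFYB (plain) or NFYC (hatched) peak. Vertical lines are 95% exact intervals of the counts; 23.6% of absent promoters and 58.7% of promoters bound in all 4 libraries have at least 2 boxes.

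Because absent genes stood later, genes of a like place were also set side by side, a comparison chosen after the data were seen. Among genes between 20 and 40% of the sgCtrl2 list, at least 2 CCAAT boxes were found in 67 of 259 absent promoters (25.9%, 20.6 to 31.7%) and 155 of 314 promoters of all 4 libraries (49.4%, 43.7 to 55.0%). The GC content was 68.7% and 60.8%. Both RH4 peaks were present at 69.8% of 318 and 88.1% of 371 genes. Between 40 and 60% of the sgCtrl1 list, at least 2 boxes were found in 25% of 196 and 43.8% of 178 promoters, and both RH4 peaks at 73.0% of 241 and 83.4% of 217 genes. Between 20 and 40% of the sgCtrl1 list, both RH4 peaks were present at 93.9% of 82 absent genes and 96.9% of 491 genes of all 4 libraries, whose intervals overlap, while at least 2 boxes were found in 31.1% and 52.0% of promoters. PAX3, with 2 boxes and an early place in both controls, was among the absent genes of the first 20%. There were 7 of these in the sgCtrl1 list and 72 in the sgCtrl2 list.

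On single chromosomes the absent share of genes bound in both controls ran from 15.7% (14 of 89) on chromosome 6 to 41.2% (7 of 17) on chromosome 21. Chromosome 2, which carries PAX3 and ALK, had 29 of 131 (22.1%), close to the 21.6% of all genes. The intervals of all chromosomes with such genes held 21.6%.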

How the data were processed

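CUT&RUN peak lists of 4 RH30 NFYB libraries were used, with the RH4 NFYB and NFYC lists as a separate readout. The values are peak positions in bp (hg38). In the lists the authors deposited, the score column is constant, so the peaks carry no measure of strength. Per the file headers, each RH30 list came from HOMER findPeaks (factor style) on its own library against 1 input directory, whose library is not named, requiring 2-fold more tags than input and 4-fold more than the surrounding 10000 bp, and the input filter removed 98.0 to 99.5% of putative peaks. Per the submitters' processing notes, the tools were Bowtie2, Trimmomatic, FastQC, HOMER, deepTools, MACS2 and bedtools, with no versions or roles given. Which caller made the RH4 lists is not stated in what was used here, and their entries carry a second set of coordinates beside the hg38 positions that were used. The IgG libraries and the differential and consensus tables were not used.

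Genes were the 20037 protein-coding entries of RefSeq GRCh38.p14 on chromosomes 1 to 22, X and Y. An overlap of 1 bp with the window made a gene bound. The strand and the promoter stretch were known for 15840 genes. Both strands were searched for CCAAT, with the longer forms CCAATCA or CCAATGG or CCAATAG or CCAATGA or CCAATCG or CCAATAA or CCAATTG as an alternative. Intervals are exact Clopper-Pearson at 95%. For each gene with several peaks, the combination whose centres lay closest was described. The bound call was tested on simulated lists (300 of 300 planted genes recovered) and gave the genes of bedtools 2.31.1 in 6 of 6 libraries. Scripts ran in Python 3.11.15 with pandas 2.3.3 and scipy 1.17.1.

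Members, lists and rules were chosen with earlier results of these data known. Named genes were PAX3; up to 8 absent and 8 edited-only members of each list, those with both RH4 peaks first and then in alphabetical order; the 15 of highest mean place in each class; the 10 with most peaks in the window; and the 5 nearest the window limit on each side. Other genes are said to be chosen after their values were seen. Some members the rule would name are not reported here.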

Additional observations from a re-analysis of the deposited data

How the results depend on the processing

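Windows of 500 and 3000 bp, the peak centre in place of any overlap, the 5′ end only, primary chromosomes only and loci in place of genes gave 400 to 552 absent genes, 16 to 26 edited-only genes and 1196 to 1705 genes bound in all 4 libraries, each within 1.5 times of the reported count. With the first 2451 peaks of each list, absent genes numbered 309 (16.4% of 1887 genes bound in both controls) and edited-only genes 64, which moves the ratio of the classes. Under the same setting the absent share of list genes was 14.1% and the share of absent genes with both RH4 peaks was 79.3%. Of 38 lists, 33 stayed within their interval and 5 moved, all to 0%. The intervals of small lists are wide, such as 0.631 to 80.6% for 1 of 4, so staying within them says little. Leaving out 1 library at a time gave 575 to 1532 absent genes, 35 to 103 edited-only genes and 1525 to 1684 genes bound in all the remaining libraries. The count was 1532 without control replicate 1 (sgCtrl1), which left sgCtrl2 as the only control, and 631 without control replicate 2. The longer motif forms were found in 58.1% of absent promoters, 78.3% of promoters bound in all 4 libraries and 24.4% of all promoters. No paired analysis was possible because the numbers name guides and no test was run between 2 libraries and 2. A peak list shows presence or absence at a threshold, and a gene with signal just under it counts as absent. Depth, the tag threshold for a putative peak and the guide changed together, and they cannot be told apart here.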
